A study of Mus musculus with 10 samples.

Results

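The genes described here build the basement membrane and the matrix beside it in the kidney, and were chosen by name as 10 of the 43629 genes in the count table. They are Col4a1, Col4a2, Col4a3 and Col4a4 (chains of collagen IV), Lama5 and Lamb2 (laminin chains), Nid1 (nidogen), Agrn (agrin), Hspg2 (perlecan) and Fn1 (fibronectin). Each symbol matched 1 Ensembl gene. RNA was sequenced from the kidneys of 4-month-old male UM-HET3 mice, a genetically heterogeneous stock, 6 on the control diet and 4 given rilmenidine, an antihypertensive agonist of the I1-imidazoline receptor, at 10 ppm in the diet for 1 month from 3 months of age. The question was whether any of these matrix genes differed between the kidneys of treated and untreated animals. The labels number the replicates without saying in which litter or cage each mouse was kept. They name no allele or other treatment that separates the groups, and the genotypes of the single mice are not given. The p-values here set a difference between groups against the spread between these samples.

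A basement membrane is a thin sheet of matrix under epithelia and around capillaries, in which a network of collagen IV and a network of laminin are linked by nidogen and by the heparan sulfate proteoglycans perlecan and agrin. Collagen IV is secreted as trimers, and the kidney uses more than 1 kind. Trimers made from the products of Col4a1 and Col4a2 are found in nearly every basement membrane, whereas the chains of Col4a3, Col4a4 and Col4a5 form the trimer of the mature glomerular filter and of some tubular basement membranes, and their loss causes Alport syndrome. Laminin with the Lama5 and Lamb2 chains is the main laminin of the same filter. Fibronectin is a matrix glycoprotein of the mesangium and interstitium that accumulates in fibrosis.

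The 4 collagen genes lie as head-to-head pairs, a layout in which neighbouring genes are read outward from a common stretch of DNA. Annotated starts of Col4a1 and Col4a2 on chromosome 8 are 21 bases apart, and those of Col4a3 and Col4a4 on chromosome 1 are 72 bases apart. The Col4a1 start, at 11312826 on the minus strand, lies past the Col4a2 start at 11312805. Col4a1 and Col4a2 thus overlap at their starts, whereas Col4a3 and Col4a4 do not. The RefSeq promoter windows of these genes (GRCm38.p6, 250 bases before and 50 after the start) are shown because the results below turn on whether the members of a pair moved together. The Col4a1 window is chr8:11312777-11313076 on the minus strand and the Col4a2 window chr8:11312555-11312854 on the plus strand, and capitals mark the 78 bases that both hold, read on opposite strands. The Col4a4 window is chr1:82586800-82587099 on the minus strand, and capitals mark the 73 bases from its own start to that of Col4a3.
Col4a1: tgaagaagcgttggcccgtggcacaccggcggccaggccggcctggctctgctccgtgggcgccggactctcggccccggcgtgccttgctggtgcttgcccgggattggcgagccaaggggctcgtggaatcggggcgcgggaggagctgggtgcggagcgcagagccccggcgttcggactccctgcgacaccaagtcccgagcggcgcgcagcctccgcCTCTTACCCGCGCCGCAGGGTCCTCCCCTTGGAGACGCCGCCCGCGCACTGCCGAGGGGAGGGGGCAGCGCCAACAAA
Col4a2: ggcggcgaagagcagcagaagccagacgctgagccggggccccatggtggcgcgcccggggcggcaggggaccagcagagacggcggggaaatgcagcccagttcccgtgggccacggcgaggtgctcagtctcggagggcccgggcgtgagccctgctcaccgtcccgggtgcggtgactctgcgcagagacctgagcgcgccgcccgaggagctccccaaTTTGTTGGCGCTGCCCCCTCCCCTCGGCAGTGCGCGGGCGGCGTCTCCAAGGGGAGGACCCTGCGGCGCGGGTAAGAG
Col4a4: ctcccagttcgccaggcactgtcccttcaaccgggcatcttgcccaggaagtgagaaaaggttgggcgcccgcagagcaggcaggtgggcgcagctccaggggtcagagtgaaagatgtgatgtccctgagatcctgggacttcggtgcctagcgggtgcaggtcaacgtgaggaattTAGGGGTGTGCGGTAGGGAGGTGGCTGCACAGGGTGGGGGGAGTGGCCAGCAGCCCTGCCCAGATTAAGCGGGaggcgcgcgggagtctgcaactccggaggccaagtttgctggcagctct
GC made up 74.0%, 73.7% and 63.3% of these windows, against a median of 52.7% over all 32851 windows. A GC box (GGGCGG, either strand) was found 1 time in the Col4a1 window, 3 times in that of Col4a2 and 0 times in that of Col4a4, and 35.7% of all windows hold one. CCAAT was found 1 time in each window of the Col4a1 pair and not in that of Col4a4 (37.4% of all windows), and TATAAA in none of the 3 (13.6% of all windows). Of the other genes studied, the first Agrn window held 12 GC boxes, Hspg2 5, Lama5 4 and Nid1 1, and Lamb2 held none. The windows do not show which factors bind there. In all, 8 of the 10 genes had a window, Col4a3 and Fn1 not.

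Libraries were made by a method that primes at the 3′ end of transcripts, and held 863605 to 3232063 counts, with the 4 treated kidneys among the 5 deepest. Malat1, an abundant noncoding RNA that stays in the nucleus, had 1200 to 2209 CPM (counts scaled to the library total) in control kidneys 1, 3, 4 and 5, against 284 and 371 in control kidneys 6 and 2 and 288 to 390 in the treated kidneys. Reads on olfactory and vomeronasal receptor genes, which kidney hardly uses, made up 4.27 to 8.99 CPM in control 6 and rilmenidine 3 and 4 and 51.7 to 436 CPM in the other 7. Neither is given as a batch in the labels. The extraction label speaks of liver, but the liver gene Alb had 0 to 20 counts per library and the proximal tubule gene Slc34a1 had 5478 to 20224. Because whole kidney was used, fewer cells of a type and less RNA per cell cannot be told apart.

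All 10 genes had at least 6 reads in enough libraries to be tested. With edgeR's quasi-likelihood test and Benjamini-Hochberg adjustment over 10055 genes, none of the 10 differed between control and rilmenidine kidneys, and the adjusted p-values ran from 0.303 to 0.965. None of the 10055 genes passed either (0%). Col4a3 and Col4a4, 2 of the 10, had an unadjusted p-value under 0.05, both lower with rilmenidine, where 6.13% of all genes were lower, 4.43% higher and 10.6% either at that level. The likelihood ratio test of edgeR called 0 of the 10 (0.438% of all genes). DESeq2 called 0 of the 7 to which it gave an adjusted p-value (0.778% of 7715 genes) and gave none for Lama5, Lamb2 and Hspg2. With the filter relaxed to 1 count in any library, Col4a3 and Col4a4 were called (quasi-likelihood test, adjusted p = 0.00123 and 0.0135), as were 0.874% of 27565 genes. The log2 fold change was below 0 for 6 and above 0 for 4 of the genes, with a median of −0.15 beside 0.0021 over all genes tested. The ranges of the treated and control kidneys overlapped for every one of the 10, and did not for 1.67% of all genes (0.875% lower and 0.796% higher with rilmenidine).

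**Figure D1:**
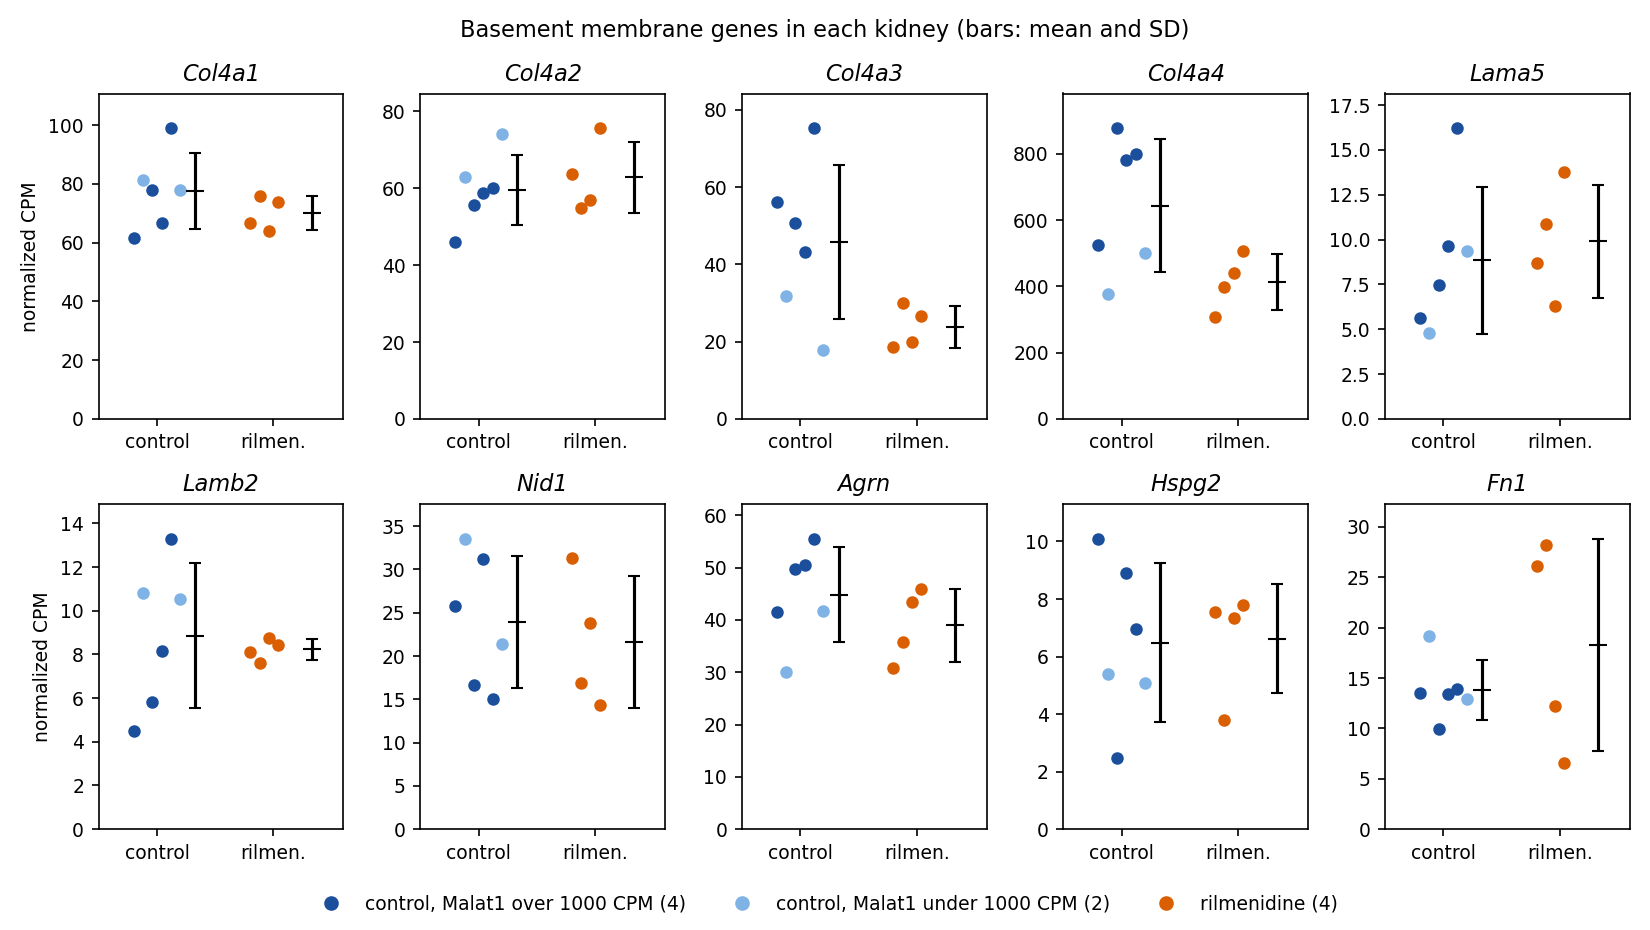
Normalized CPM of each gene (vertical axis, starting at 0) in each kidney, by group, with the mean and SD as bars beside the points. Dark blue marks the 4 control kidneys with Malat1 over 1000 CPM, light blue the other 2 and orange the 4 rilmenidine kidneys. Col4a3 and Col4a4 are the only panels in which all dark blue points lie above all others.

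Col4a3 (ENSMUSG00000079465, plus strand of chromosome 1, 82586921 to 82722059, GRCm38) encodes a chain of the glomerular collagen IV trimer. Its normalized CPM in control kidneys ranged from 17.9 to 75.2 with a median of 46.9, and in rilmenidine kidneys 1 to 4 were 18.6, 29.9, 19.9 and 26.5. All 4 treated kidneys lay below the control median, but control 6 lay below all of them and control 2, at 31.8, just above. The group values were 45.8 ± 19.9 (SD, n = 6) and 23.7 ± 5.38 (SD, n = 4). Treated kidneys thus had 0.528 of the control level in the fit, a log2 fold change of −0.92 ± 0.30 (SE) with a 95% interval of −1.56 to −0.28. In edgeR's quasi-likelihood test the adjusted p was 0.303 (unadjusted 0.00769). This rested on 32 to 130 raw counts per library. An annotated noncoding gene on the opposite strand, C430014B12Rik, covers the 3′ end of Col4a3 and had 0 to 13 counts, so reads of the pair may be divided wrongly if strand was not used in counting.

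Col4a4 (ENSMUSG00000067158, minus strand of chromosome 1, 82448423 to 82586849) encodes the next chain of that trimer. Control kidneys had 378 to 877 normalized CPM with a median of 654, and rilmenidine kidneys 1 to 4 had 309, 397, 441 and 508. Again every treated kidney was below the control median, and control 2 and control 6, at 378 and 500, were within the treated range. Means were 644 ± 201 (SD, n = 6) in control and 414 ± 83.8 (SD, n = 4) in treated kidneys. The fitted fold was 0.644, on the log2 scale −0.64 ± 0.22 (SE) with a 95% interval of −1.09 to −0.18. By the same quasi-likelihood test the adjusted p was 0.316 (unadjusted 0.00958). With 469 to 1628 counts per library this was by far the best counted of the 10 genes.

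The highest values of Col4a3 and Col4a4 were those of the 4 control kidneys in which Malat1 was high. In those 4 kidneys Col4a3 had 43.1 to 75.2 normalized CPM and Col4a4 526.4 to 877, above every other kidney of either group. In the other 2 control kidneys the means were 24.9 for Col4a3 and 439 for Col4a4, and in the 4 treated kidneys 23.7 and 414. Across all genes tested, 5.05% were likewise above the rest in those 4 control kidneys and 4.84% below, against 2 and 0 of the 10 here. With only the 6 kidneys of low Malat1 in the fit, 2 control and 4 treated, the log2 fold change came to −0.036 ± 0.29 (SE) for Col4a3 and −0.084 ± 0.21 (SE) for Col4a4. That fit was added after seeing the data. It left out the 4 highest values of each gene, so both log2 fold changes had to rise. With log2 Malat1 as a covariate the log2 fold change was 0.010 and −0.16. The quasi-likelihood test gave both genes an adjusted p of 1.00 in either fit, and an unadjusted p-value under 0.05 to 0 of the 10 genes in each (3.22% of all genes in the first and 3.09% in the second). Malat1 was low in every treated kidney, so control 2 and control 6 alone separate its level from the diet. Its part in the difference was not tested.

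**Figure D2:**
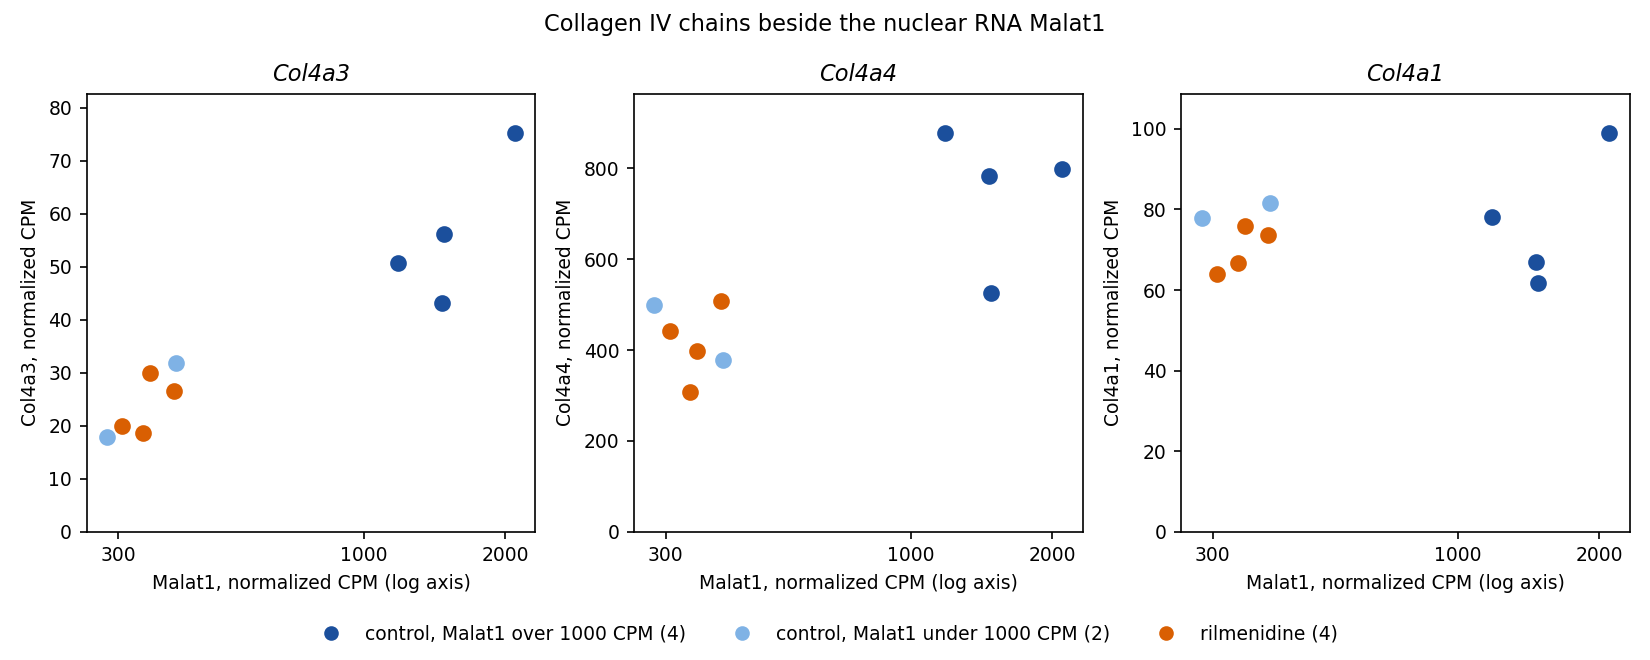
Normalized CPM of Col4a3, Col4a4 and Col4a1 (vertical axes, starting at 0) against Malat1 (horizontal log axis, normalized CPM), 1 point per kidney, coloured as in the plot of the genes by kidney. The 4 control kidneys at 1182 to 2100 Malat1 CPM hold the highest Col4a3 and Col4a4 values, while for Col4a1 they span 61.7 to 98.9 and the others 64.0 to 81.5.

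Col4a5, the remaining chain of the glomerular trimer, lies on the X chromosome and was not among the 10 genes. It is given for comparison and was chosen after its values were seen. It had 38.2 to 47.3 normalized CPM in the 4 control kidneys with high Malat1, 19.8 and 30.0 in control 2 and 6, and 18.6, 38.6, 29.7 and 22.8 in rilmenidine kidneys 1 to 4. Rilmenidine 2 thus reached the range of the high group. Its log2 fold change, −0.41 ± 0.24 (SE), did not pass (adjusted p 0.575, quasi-likelihood test). Markers of podocytes, the cells that make this trimer in the glomerulus, did not follow the same order. Summed over the 11 markers they came to 215 to 315 normalized CPM in control and 228 to 271 in treated kidneys, with 237, 244, 256 and 309 in the 4 control kidneys of high Malat1. Nphs1, a defining gene of the slit diaphragm, had at most 5 counts in any library.

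Within a kidney, Col4a3 and Col4a4 did not keep a fixed proportion. Per library there were 9.38 to 27.8 counts of Col4a4 for each count of Col4a3, or 7.94 to 23.6 per kilobase of the longest annotated transcript (8.554 and 10.108 kb). Because reads were primed at 3′ ends and do not scale with length, the value per kilobase is not a ratio of transcript numbers. On a log2 scale the ratio of Col4a3 to Col4a4 was −3.87 ± 0.59 (SD, n = 6) in control and −4.12 ± 0.31 (SD, n = 4) in treated kidneys. The groups overlapped, and a two-sided exact permutation test over the 210 splits gave p = 0.481 (0.708 after adjustment over 5 ratios). Over all 10 kidneys their log2 levels gave a Pearson r of 0.73 (permutation p = 0.0182, adjusted over 2 pairs 0.0365) and a Spearman rho of 0.69 (permutation p = 0.0353, adjusted 0.0706). Without control 1 and control 5, the kidneys farthest from the median of Col4a3, r was 0.743 (exact permutation p = 0.0359) and rho 0.50 (exact permutation p = 0.216). Both genes had lower means in the treated kidneys, and such a shared shift adds to r over all kidneys. In the 6 control kidneys alone r was 0.59 (exact permutation p = 0.231). The 4 kidneys of high Malat1 held the highest values of both genes. They were no separate cluster for Col4a4, where control 1 had 526.4 normalized CPM and rilmenidine 4 had 508.4. The relation was also taken in the 6 kidneys of low Malat1, a comparison chosen after seeing the data. It leaves out the upper range of both genes. There r was −0.018 (exact permutation p = 0.979) and rho −0.20 (exact permutation p = 0.714).

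The other head-to-head pair, Col4a1 (ENSMUSG00000031502, chromosome 8, 11198423 to 11312826, minus strand) and Col4a2 (ENSMUSG00000031503, chromosome 8, 11312805 to 11449287, plus strand), encodes the collagen IV of nearly all basement membranes. Col4a1 had 61.7 to 98.9 normalized CPM in control kidneys, with a median of 78.0, and 66.7, 76.0, 64.0 and 73.7 in rilmenidine kidneys 1 to 4. All 4 treated values were below the control median, yet inside the control range. Means were 77.5 ± 12.9 (SD, n = 6) and 70.1 ± 5.68 (SD, n = 4). This is a log2 fold change of −0.15 ± 0.14 (SE) with a 95% interval of −0.46 to 0.15, and the adjusted p was 0.758. Col4a2 had 46.0 to 74.1 normalized CPM in control kidneys, with a median of 59.4, and 63.8, 54.9, 57.0 and 75.6 in treated kidneys 1 to 4. Rilmenidine 2 and 3 lay below the control median, rilmenidine 1 above it, and rilmenidine 4 was the highest of all kidneys. On the log2 scale Col4a2 differed by 0.065 ± 0.15 (SE) with a 95% interval of −0.25 to 0.38 (adjusted p 0.927). For these genes the intervals cover fold changes from 0.729 to 1.11 and from 0.839 to 1.30, so a change by as much as that of Col4a3 lies outside both. In the 4 control kidneys of high Malat1, Col4a1 had 61.7 to 98.9 normalized CPM, a range that holds the 78.0 and 81.5 of the other control kidneys. Col4a2 was lower there, at 46.0 to 60.2 against 62.9 and 74.1 in the other control kidneys, and the treated kidneys, at 54.9 to 75.6, overlapped both.

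Col4a1 and Col4a2 were counted at similar levels, with 0.975 to 1.64 counts of Col4a1 for each of Col4a2 and transcripts of 6.615 and 6.45 kb. Their log2 ratio was 0.38 ± 0.23 (SD, n = 6) in control and 0.17 ± 0.22 (SD, n = 4) in rilmenidine kidneys. The difference of −0.21 was within the spread (two-sided exact permutation p = 0.190, adjusted 0.476). Over all 10 kidneys their log2 levels gave Pearson r = 0.33 (permutation p = 0.35, adjusted over 2 pairs 0.35) and Spearman rho = 0.27 (permutation p = 0.447). Without control 1 and control 5, the kidneys farthest from the median of Col4a1, r was 0.21 and rho −0.048 (exact permutation p = 0.596 and 0.935). The log2 ratio of Col4a3 to Col4a1, the glomerular chain over the general one, was −0.87 ± 0.73 (SD, n = 6) in control and −1.58 ± 0.22 (SD, n = 4) in treated kidneys. Its difference of −0.70 had a two-sided exact permutation p of 0.110, or 0.476 after adjustment.

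Of the laminin genes, Lama5 (ENSMUSG00000015647, chromosome 2, 180176373 to 180225859) encodes the alpha chain of most adult kidney basement membranes. It had 4.79 to 16.2 normalized CPM in control kidneys, with a median of 8.41, and 8.70, 10.9, 6.30 and 13.7 in rilmenidine kidneys 1 to 4. The treated kidneys lay inside the control range, 3 of them above its median. Lama5 thus had a log2 fold change of 0.13 ± 0.34 (SE), adjusted p 0.932. Lamb2 (ENSMUSG00000052911, chromosome 9, 108479736 to 108490530), the beta chain of the glomerular filter, ran from 4.49 to 13.3 in control kidneys, with a median of 9.35, and was 8.12, 7.60, 8.75 and 8.43 in the treated ones. The treated kidneys were close together, all below the control median. For Lamb2 the log2 fold change came to −0.16 ± 0.29 (SE), adjusted p 0.912. These genes had only 5 to 44 and 4 to 27 counts per library, and their 95% intervals, fold changes of 0.669 to 1.80 and 0.583 to 1.38, leave changes of moderate size undetectable at this depth.

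Lamb1, the beta chain of other basement membranes and of the developing glomerulus, was far better counted, with 8.91 to 28.2 counts for each count of Lamb2, or 8.67 to 27.5 per kilobase of longest transcript. With reads primed at 3′ ends, the value per kilobase is again not a ratio of transcript numbers. Lamb1 had 122 ± 11.5 (SD, n = 6) normalized CPM in control and 119 ± 9.14 (SD, n = 4) in treated kidneys, a log2 fold change of −0.023. The log2 ratio of Lamb2 to Lamb1 was −3.81 ± 0.65 (SD, n = 6) and −3.82 ± 0.081 (SD, n = 4), with a two-sided exact permutation p of 0.981. That of Lama5 to Lamb2 was −0.025 ± 0.57 (SD, n = 6) and 0.21 ± 0.51 (SD, n = 4), with p = 0.567 by the same exact test and 0.708 after adjustment. The difference of 0.23 was 0.012 without control 2 and 0.455 without rilmenidine 3. Neither balance of laminin chains differed between the groups beyond the spread of the kidneys.

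Nid1 (ENSMUSG00000005397, chromosome 13, 13437551 to 13512269) encodes nidogen, which joins the laminin and collagen IV networks. Control kidneys had 15.04 to 33.6 normalized CPM with a median of 23.6, and rilmenidine kidneys 1 to 4 had 31.3, 16.8, 23.8 and 14.4. The treated values spread as widely as the control ones, on both sides of the control median, and rilmenidine 4 was the lowest of all kidneys. Nid1 differed by −0.16 ± 0.27 (SE) on the log2 scale (adjusted p 0.888, quasi-likelihood test). The ratio to Nid2, the other nidogen, was not tested because Nid2 had a median of 1 count per library.

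Of the heparan sulfate proteoglycans, Agrn (ENSMUSG00000041936, chromosome 4, 156165290 to 156197488) encodes agrin, the main one of the glomerular filter. It had 30.0 to 55.5 normalized CPM in control kidneys, with a median of 45.8, and 30.7, 35.8, 43.4 and 45.9 in rilmenidine kidneys 1 to 4. Rilmenidine 4 lay barely above the control median and the other 3 below it. The fit gave −0.19 ± 0.18 (SE) on the log2 scale, with a 95% interval of −0.57 to 0.19 (adjusted p 0.762). Agrn values also leaned higher in the control kidneys of high Malat1, at 41.5 to 55.5 against 30.0 and 41.7 in the other control kidneys, and with the 6 kidneys of low Malat1 it came to 0.12 ± 0.23 (SE). Hspg2 (ENSMUSG00000028763, chromosome 4, 137468769 to 137570630), which encodes perlecan, was the least counted of the 10 genes, with 3 to 25 counts per library. Its normalized CPM were 2.49 to 10.1 in control kidneys, with a median of 6.17, and 7.54, 3.80, 7.35 and 7.81 in the treated ones. Rilmenidine 2 fell apart from the other 3 treated kidneys, which were above the control median. Hspg2 differed by 0.089 ± 0.35 (SE) on the log2 scale (adjusted p 0.965).

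Fn1 (ENSMUSG00000026193, chromosome 1, 71585520 to 71653200) encodes fibronectin, and had the largest log2 fold change above 0 of the 10 genes, 0.34 ± 0.34 (SE), with a 95% interval of −0.39 to 1.06 (adjusted p 0.776). Its normalized CPM in control kidneys ranged from 9.96 to 19.2 with a median of 13.4. The treated kidneys, 1 to 4, had 26.1, 28.2, 12.2 and 6.56. The treated group was thus split, with rilmenidine 1 and 2 above every control kidney, rilmenidine 3 below the control median and rilmenidine 4 below every control kidney. Means were 13.8 ± 2.99 (SD, n = 6) and 18.3 ± 10.6 (SD, n = 4). The high pair were the treated libraries with 98.7 and 436 CPM on olfactory and vomeronasal receptor genes, and the low pair those with 4.27 and 7.43. Among the 7 libraries with at least 10 CPM on such genes, 5 control and 2 treated, the log2 fold change came to 0.94 ± 0.29 (SE), with an adjusted p of 0.327 (unadjusted 0.00528) in edgeR's quasi-likelihood test. The other 3 hold 1 control kidney, at 12.9, and are too few for a test. Leaving them out removes rilmenidine 3 and 4, the lowest treated values, so the log2 fold change had to rise. That rise is therefore no separate result. Without rilmenidine 4 the log2 fold change was 0.65 (unadjusted p-value 0.0362, adjusted 0.487), and without rilmenidine 2 it was 0.033. The part of the receptor gene reads in this split was not tested.

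**Figure D3:**
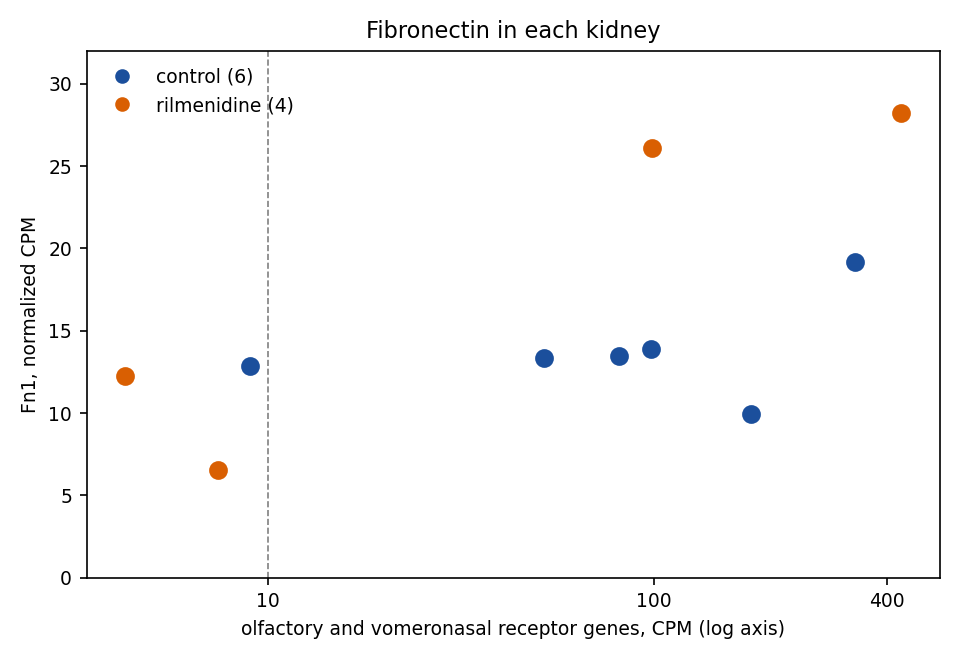
Fn1 normalized CPM (vertical axis, starting at 0) against the CPM on olfactory and vomeronasal receptor genes (horizontal log axis) in each kidney, with blue for control and orange for rilmenidine and a dashed line at 10 CPM. The treated kidneys at 26.1 and 28.2 stand right of the line and those at 12.2 and 6.56 left of it.

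Leaving out the 4 control kidneys of high Malat1 changed the picture for the glomerular collagens more than for the other genes. Those 4 kidneys held the highest values of Col4a3 and Col4a4, so leaving them out had to raise both log2 fold changes. This contrast between genes is therefore no separate result. The log2 fold changes of Col4a3 and Col4a4 moved from −0.92 and −0.64 to −0.036 and −0.084. Those of Col4a1, Lamb2 and Nid1 stayed below 0, at −0.19, −0.36 and −0.35, and those of Lama5, Hspg2 and Fn1 above 0, at 0.45, 0.36 and 0.14. Agrn and Col4a2 changed sign, to 0.12 and −0.13. In this fit of 6 kidneys none of the 10 genes had an unadjusted p-value under 0.05, and the fit holds only 2 control kidneys.

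**Figure D4:**
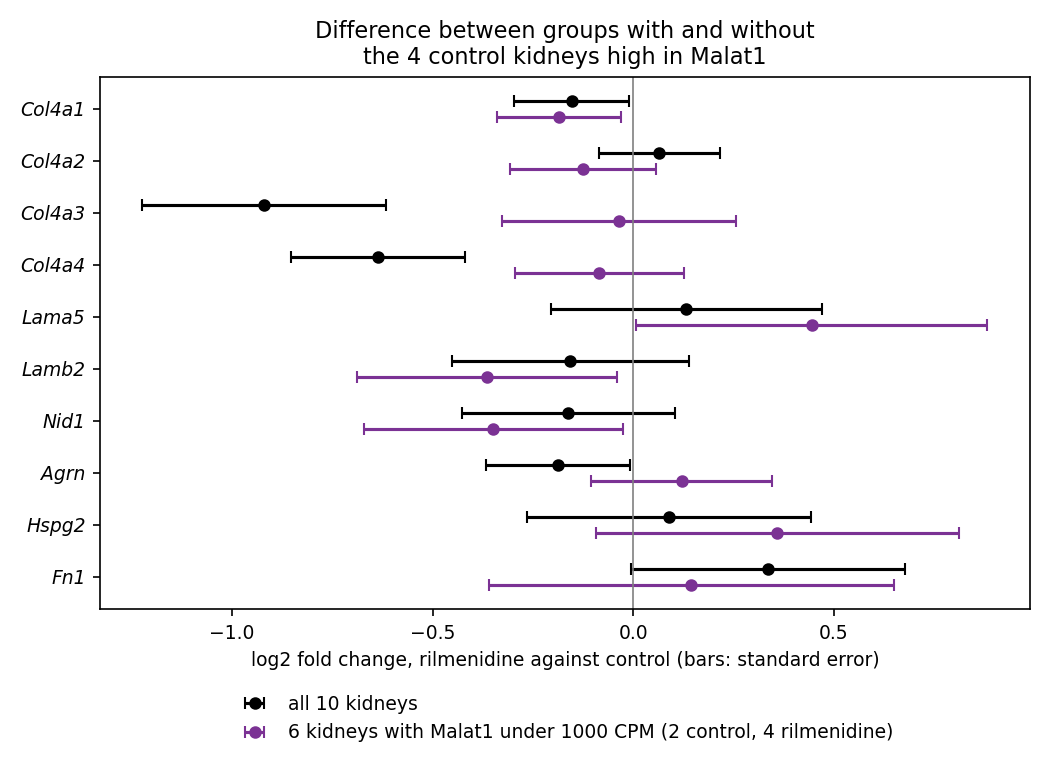
Log2 fold change of each gene, rilmenidine against control (horizontal axis), with its standard error as bars, from all 10 kidneys (black) and from the 6 kidneys with Malat1 under 1000 CPM (purple). The black points of Col4a3 and Col4a4 lie at −0.92 and −0.64 and their purple points near 0.

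The kidneys of a group varied in these genes, and the median biological coefficient of variation was 0.252 over the 10 genes and 0.199 over all genes tested. In control kidneys the SD was 15.4% of the mean for Col4a2, 16.7% for Col4a1 and 20.3% for Agrn, and 42.7% to 46.3% for Hspg2, Col4a3 and Lama5. Col4a1 and Col4a2 were thus the steadiest members in control kidneys, on 55 to 200 and 41 to 190 counts. Col4a3 had 46 to 130 counts there, but Lama5 had 5 to 28 and Hspg2 3 to 13. With so few reads, counting alone adds to the spread. In treated kidneys the SD was smallest for Lamb2, at 5.93% of the mean. On 14 to 27 counts per library counting alone can give more spread, so this cannot be read as steady expression. Per kilobase of longest transcript, Col4a4 was the highest in control kidneys at 63.7 CPM, followed by Col4a1 at 11.7, Col4a2 at 9.24, Col4a3 at 5.35 and Agrn at 5.21, and Hspg2 was the lowest at 0.457. Reads taken at 3′ ends do not scale with length, but by CPM alone Col4a4 was also first and Hspg2 last. Col4a3 and Agrn are neighbours in this order that do not differ beyond their spread.

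The genes whose log2 levels over the 10 kidneys were most like a member, by Pearson r and given as a description, were outside the matrix lists. For Col4a4 they were Mgea5 (0.98), Slc22a30 (0.97) and the splicing factor gene Srsf6 (0.97), and for Col4a3 Map2k7 (0.97), Akap8 (0.97) and the Y-linked Eif2s3y (0.95). Agrn was closest to Eif4g3 (0.98), Myo6 (0.97) and Flrt1 (0.97). For Col4a1 the closest were Sgpp2 (0.91), 2810408I11Rik (0.91) and Rnf216 (0.89), and for Col4a2 Trappc9 (0.93), Cyth2 (0.92) and Slc35e4 (0.90). None of the 4 collagen genes had its head-to-head partner among these. With 10054 genes to choose from and libraries that share depth and Malat1 level, high values arise easily.

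The remaining structural genes of basement membranes were centred near 0. Of 28, 16 were tested, 0 passed the adjusted threshold and 0 had an unadjusted p-value under 0.05. Their median log2 fold change was −0.017, with 7 above and 9 below 0. Log2 fold changes were −0.022 for Lamc1, the gamma chain of most laminins, 0.052 for Col18a1, the source of endostatin, and 0.19 for Tinag, a tubular basement membrane antigen.

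Of 25 interstitial matrix genes, which include the fibrillar collagens, 17 were tested and 0 passed. Unadjusted p-values under 0.05 were found for 1 gene above and 2 below 0, and the median log2 fold change was −0.15, with 13 of 17 below 0 (49.7% of all genes). Spp1, which encodes osteopontin, had 147 ± 43.7 (SD, n = 6) normalized CPM in control and 215 ± 38.4 (SD, n = 4) in treated kidneys, a log2 fold change of 0.54 (adjusted p-value 0.321). Its 4 treated values, 181 to 264, lay above those of 5 control kidneys, and control 6 had 228. Emilin1, a glycoprotein of elastic fibres, and Col5a2, a chain of collagen V, had log2 fold changes of −0.85 and −0.70 (adjusted p-values 0.389 and 0.464 in the quasi-likelihood test), on 7 to 17 and 10 to 37 counts per library.

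Matrix receptors numbered 19 tested of 24, with 0 passing, a median of 0.095 and 1 unadjusted p-value under 0.05. That was Itgb6, an epithelial integrin chain that binds fibronectin and activates latent TGF-beta. Itgb6 measured 111 ± 27.2 (SD, n = 6) normalized CPM in control against 77.0 ± 10.9 (SD, n = 4) in treated kidneys, −0.52 on the log2 scale (adjusted p-value 0.313). Control 1, at 75.2, was within the treated range of 61.5 to 85.0, and the other 5 control kidneys were above it.

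Genes for collagen folding, export and crosslinking (16 tested of 22) had a median log2 fold change of 0.048, those for matrix breakdown and its inhibitors (11 of 24) −0.029, and those of TGF-beta signaling, the best known inducer of matrix genes (17 of 23), −0.22. None of these genes passed or had an unadjusted p-value under 0.05. In the TGF-beta list 14 of 17 were below 0 (49.7% of all genes), among them Smad2 (−0.34), Smad7 (−0.33) and Ccn2 (−0.34). The other 3, Tgfbr3 (0.17), Bmp7 (0.16) and Ltbp1 (0.0009), were above 0. The ligand genes Tgfb1, Tgfb2 and Tgfb3 were too low to test. Smad7 was the only tested gene of these lists whose groups did not overlap, where 1.67% of all genes did not.

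**Figure D5:**
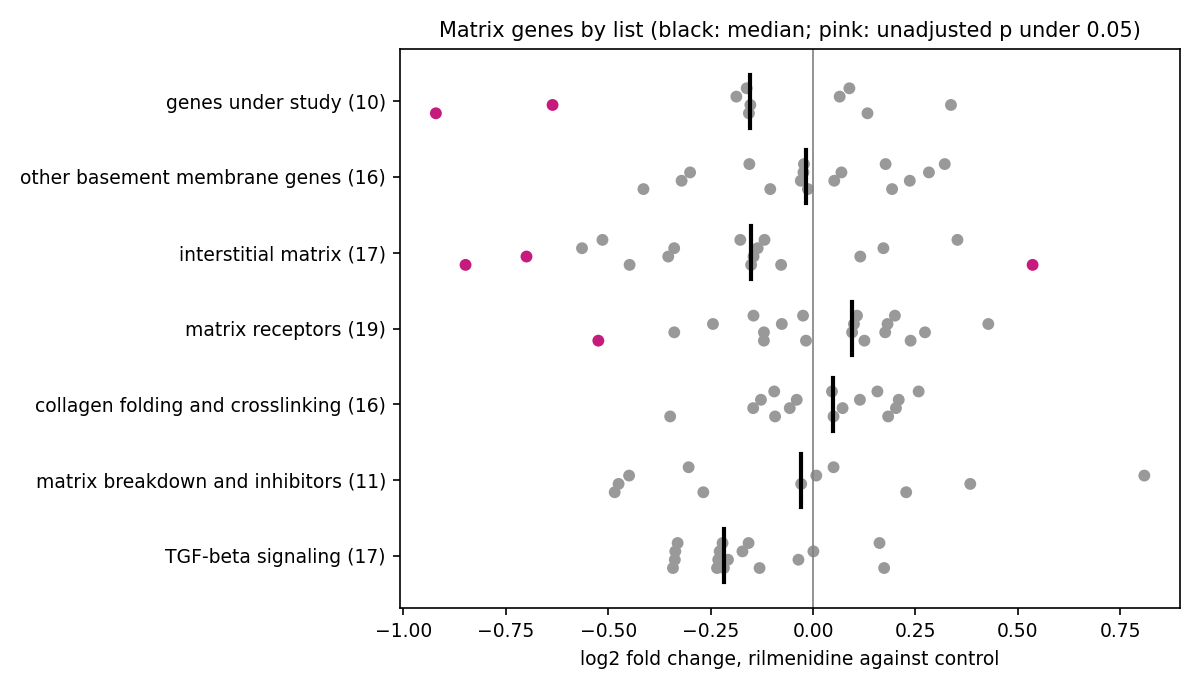
Log2 fold change of each tested gene, rilmenidine against control (horizontal axis), in each list of matrix genes, with the number tested in parentheses, a black line at each median and pink for an unadjusted p-value under 0.05. Medians lie between −0.22 and 0.095, and the pink points are Col4a3, Col4a4, Emilin1, Col5a2, Spp1 and Itgb6.

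Markers of the cells that make matrix were at similar levels in both groups. Endothelial markers (10) summed to 284 to 468 normalized CPM in control and 389 to 431 in treated kidneys, and mesangial and fibroblast markers (11) to 166 to 327 and 161 to 233. In these lists and the podocyte list 0 genes had an unadjusted p-value under 0.05. Immune markers summed to 77.2 to 228 in control and 135 to 162 in treated kidneys, with 0 such genes. Of the 9 distal nephron markers tested, 3 were higher and 1 lower at that level (4.43% and 6.13% of all genes). Among them were Aqp2 of the principal cell (log2 fold change 0.58, adjusted p-value 0.229), Umod of the thick ascending limb (0.61, adjusted p-value 0.244) and Slc12a3 of the distal convoluted tubule (−0.55, adjusted p-value 0.313). The groups of Aqp2 did not overlap, as for 1.67% of all genes. Proximal tubule markers summed to 44530 to 57340 in control and 48380 to 71840 in treated kidneys, with 1 gene, Miox, at an unadjusted p-value under 0.05 (log2 fold change 0.39, adjusted p-value 0.466). None of them passed the adjusted threshold.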

How the data were processed

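Counts of reads per Ensembl gene were deposited by the authors, without normalization, for 10 kidney libraries. Their titles assign them to 6 control and 4 rilmenidine mice. The study's methods name 8 control kidneys, and how these relate to the 6 here is not stated. The submitters' processing notes name bcl2fastq 1.8.4, Trimmomatic 0.32, STAR 2.5.2b, featureCounts 1.5 and build mm10. The annotation release, the strand setting and the handling of molecular identifiers are not given in the sources used here, so counts may include amplified copies.

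As in the study's methods, genes reaching 6 reads in 66.6% of libraries were kept (10055) and RLE factors applied. The quasi-likelihood test of edgeR 4.0.16 (R 4.3.3) compared the groups without covariates, with Benjamini-Hochberg adjustment over all tested genes and a threshold of 0.05. Scripts were tested on simulated data. Normalized CPM use RLE-scaled library sizes, and log2 levels a prior count of 2. Ratios of 2 genes used log2 of counts plus 0.5 and two-sided exact permutation tests over 210 splits, whose smallest p is 0.00476; correlations used 100000 permutations, or all of them for under 10 kidneys. Library totals of 863605 to 3232063 counts set the precision.

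Symbols and coordinates come from GENCODE M21 (GRCm38), which holds 42462 of the 43629 listed genes, and promoter windows from RefSeq. The genes, lists and tests were chosen with earlier results of these data known. Named genes are the 10, their partners in the ratios, up to 3 genes per list with the smallest unadjusted p-values under 0.05, the 3 most similar genes of each well counted member and tissue markers; any other list gene given a value was picked after its values were seen. Npnt, Dcn, Col1a1, Col1a2 and Itga8 stand in both a matrix and a marker list. Alternatives were TMM normalization, other count filters, DESeq2 1.42.0, the likelihood ratio test, library size or Malat1 as covariate, a replicate block, leaving out each kidney, and the 7 libraries with receptor reads; the fit of 6 libraries with low Malat1 was added after seeing the data.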

Additional observations from a re-analysis of the deposited data

Results flagged for a closer look

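Of 30 groups of values examined (the 10 genes and 5 ratios in each group of kidneys), 2 held a kidney far from the rest of its group by Dixon's criterion, and chance alone flags about 1 in 20. Hspg2 in rilmenidine 2 had 3.80 normalized CPM (7 counts), where the other treated kidneys had 7.35 to 7.81. The log2 ratio of Lama5 to Lamb2 was −1.12 in control 2, on 8 and 18 counts, and the difference between the groups, 0.23, was 0.012 without this kidney. Both rest on few counts.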

How the results depend on the processing

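None of the 10 genes was called under any alternative (DESeq2 gave no adjusted p for Lama5, Lamb2 and Hspg2, and a minimum of 10 counts in every library left these 3 out) except with every gene of at least 1 count kept, where 2 were (Col4a3 and Col4a4). Over the whole table the count of calls, 0 in the quasi-likelihood test, was 241 with that filter, 60 with DESeq2, 44 with the likelihood ratio test and 3 with the replicate number as a block, and 0 to 37 with 1 kidney left out (33 without control 2, 37 without control 6 and 6 without rilmenidine 1). Same-numbered kidneys of the groups did not deviate together (correlations −0.077 to 0.077), and differently numbered ones gave −0.341 to 0.193. So few correlations cannot settle whether the numbers pair the animals. The block called 0 of the 10. Of 197 alternative values of the 10 genes, 180 kept their direction and side of the threshold, 2 passed it and 15 changed sign. With Malat1 as a covariate the log2 fold change was 0.0102 for Col4a3, 0.0919 for Agrn and −0.0826 for Col4a2, and in the 6 libraries of low Malat1 0.1208 for Agrn and −0.1253 for Col4a2. With library size as a covariate it was −0.0394 for Lama5 and −0.1689 for Col4a2, and −0.45 and −0.62 for Col4a3 and Col4a4. With the block it was 0.1655 for Lamb2, and in the 7 libraries with receptor reads −0.2329 for Hspg2. With 1 kidney left out, values ran from −0.093 to 0.403 for Lama5, −0.0568 to 0.2654 for Hspg2, −0.0403 to 0.1428 for Col4a2 and −0.3763 to 0.0053 for Nid1, and stayed below 0 for Col4a3 (−1.11 to −0.69) and Col4a4 (−0.75 to −0.52). The log2 ratio of Lamb2 to Lamb1, −0.0155, ran from −0.1854 to 0.1202, and that of Lama5 to Lamb2, 0.2315, from 0.0121 (without control 2) to 0.4548 (without rilmenidine 3). The correlation of Col4a3 with Col4a4, 0.73 over all kidneys (permutation p = 0.0182, adjusted 0.0365), was 0.732 on CPM in place of log2 CPM (permutation p = 0.0171), 0.743 without control 1 and 5 (exact permutation p = 0.0359), 0.5895 in control kidneys alone (exact permutation p = 0.231) and −0.0178 in the 6 kidneys of low Malat1. The causes were not tested. Depth limits Hspg2, Lamb2 and Lama5 most, at 3 to 44 counts per library.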
